A study of Oncorhynchus mykiss with 15 samples.

Results

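The genes described here encode the subunits of the hypoxia-inducible factor (HIF), the von Hippel-Lindau protein Vhl that marks HIF alpha for destruction, and Cullin-2 (CUL2), the scaffold of the ubiquitin ligase in which Vhl works. They were chosen by name, taking every copy called hif1a, epas1, hif3a, arnt, arnt2, vhl or cul2 in the deposited gene table. This gave 16 genes of 34965: 5 copies of hif1a, 3 of epas1, 2 of arnt, 3 of arnt2, 1 of vhl and 2 of cul2, and none named hif3a. Of these 16, 11 passed a filter on low values, as did 17502 genes in all.

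Liver RNA of rainbow trout aged 150 days was sequenced in a study of hypoxia lasting different times. Each of 5 groups had 3 libraries: N, then H3h, H12h and H24h, and R3h. The names carry times of 3, 12 and 24 hours, while no label gives a strain or the meaning of N, H or R. The other 4 groups were compared with the single N group, so those comparisons share their controls. Whether the 3 libraries of a group are 3 fish is not stated, and p-values therefore reflect library-to-library spread, which may be technical.

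In animals, HIF is a pair of bHLH-PAS proteins, an oxygen-labile alpha subunit (HIF1A, or EPAS1, also called HIF-2 alpha) and a stable beta subunit (ARNT). With oxygen present, EGLN prolyl hydroxylases modify the alpha subunit, VHL binds the hydroxylated form, and the ligase of elongins, CUL2 and a RING protein tags it for the proteasome. When oxygen is short the alpha subunit escapes, pairs with ARNT and switches on genes of glycolysis, blood vessel growth and its own hydroxylases, so much of the control acts on protein, which RNA levels do not show.

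Library totals ranged from 45364029 to 70416280 counts. R3h replicate 3 stood apart: its mean correlation with the other libraries of its group was 0.803, the lowest of the 15, 21443 genes reached 10 counts in it against 22063 to 26212 elsewhere, and its 10 most abundant genes held 32.3% of counts. The main R3h results are therefore given with and without it. Levels are given as FPKM (fragments per kilobase of transcript, scaled to library size), as the authors deposited them. Fold changes are on a log2 scale from edgeR's quasi-likelihood test on counts scaled by the trimmed mean of M values (TMM), with an approximate standard error (SE), and a gene was called at a Benjamini-Hochberg adjusted p under 0.05 over all genes tested. The scales differ: on log2(FPKM + 1), the median gene stood at -0.35 in H12h, -0.22 in H24h and -0.29 in R3h relative to N, while with TMM these medians were -0.07, -0.05 and -0.04. Hepatocyte markers summed to between 49822 and 83349 FPKM in every library, as liver tissue would give, and exocrine pancreas markers to at most 5 FPKM.

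Epas1 (110499310) and hif1a (100135944) were the most abundant of the 16 genes. Both differed among the 5 groups, with high levels in N and H3h and low levels in H24h and R3h. None of the 11 tested genes was called higher than N in any group. Across the 5 groups edgeR called these 2 of the 11 tested genes, where it called 7.24% of all genes, and 5 of the 11 had an unadjusted p under 0.05, where 29% of all genes did. DESeq2 called 4 of the 11 (25.7% of all genes), limma on log2(FPKM + 1) 3 (11.6%) and limma-voom with quality weights 6 (69.2%). When R3h replicate 3 was left out, edgeR called the same 2, and 15.3% of all genes. Adjusted p was 0.0296 for Epas1 (110499310) and 0.0378 for hif1a (100135944). Each call was lost when certain single libraries were left out. For Epas1 (110499310) the adjusted p was 0.0140 to 0.0682 over 15 such fits and under 0.05 in 7, being lost without N replicate 3, H3h replicate 1 or 2, H12h replicate 1, R3h replicate 1 or any one of H24h. For hif1a (100135944) it was 0.0174 to 0.0955 and under 0.05 in 4, those without N replicate 2, H12h replicate 3, R3h replicate 2 or R3h replicate 3.

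**Figure D1:**
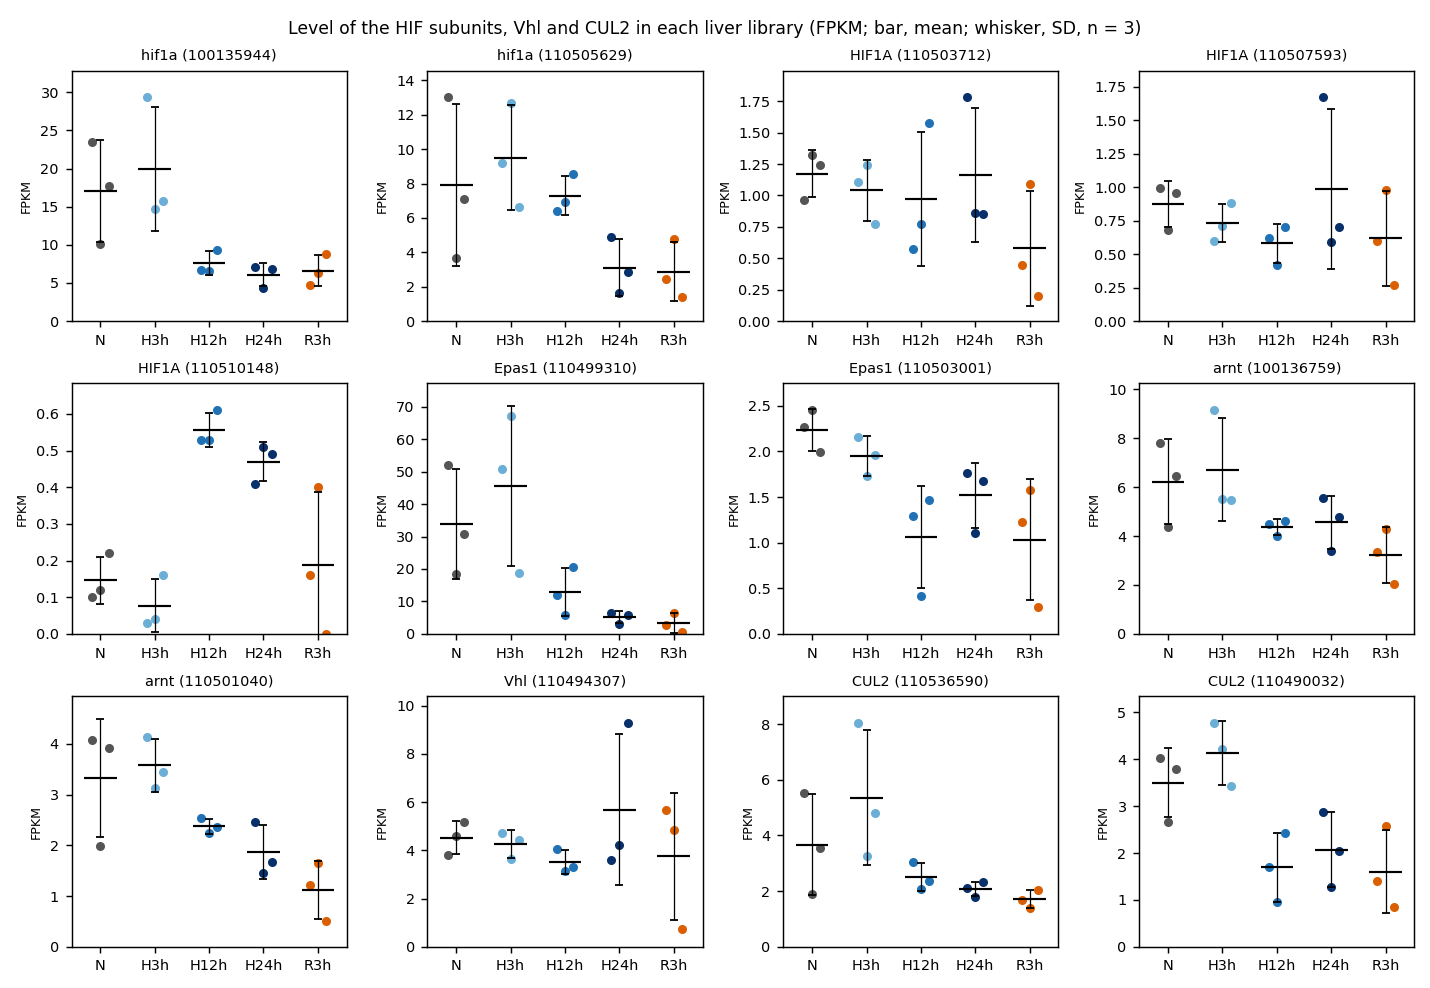
Level in FPKM of the 11 tested genes and of HIF1A (110510148) in each library, by group on the horizontal axis, with a bar for the mean and a whisker for the SD of 3 libraries (cut at 0). Epas1 (110499310) is between 18.4 and 67.0 FPKM in N and H3h and between 0.68 and 6.56 FPKM in H24h and R3h.

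Epas1 (110499310), on chromosome 20 from 26695984 to 26744167 in the coordinates of the deposited table, encodes HIF-2 alpha and was the most expressed alpha subunit in N. Its level in N was 52.0, 18.4 and 30.9 FPKM, and in H3h 50.95, 67.0 and 18.8 FPKM. It was 12.1, 5.80 and 20.8 FPKM in H12h, 6.49, 3.10 and 5.85 FPKM in H24h, and 2.86, 6.56 and 0.68 FPKM in R3h. Every library of H24h and R3h lay below every library of N and H3h, H12h overlapped N, and the lowest value of all was that of R3h replicate 3. How many of all genes stood in this order was not computed, and on log2(FPKM + 1) the median gene was also lower in H24h and R3h than in N.

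Epas1 (110499310) fell in R3h against N, by 2.92 ± 0.69 on the log2 scale (adjusted p = 0.0328, edgeR). Without R3h replicate 3 the difference was -2.42 ± 0.59 (adjusted p = 0.0345). Over 24 other settings and left-out libraries the adjusted p ranged from 0.00029 to 0.247 and passed in 20. It was 0.126 without N replicate 1, 0.113 without N replicate 3 and 0.0922 without R3h replicate 1. In H24h against N the log2 difference was -2.39 ± 0.67 (adjusted p = 0.117, edgeR), and -2.36 ± 0.50 (0.0377) without R3h replicate 3, which lowers the spread shared by all groups. Neither H3h (0.46 ± 0.64, adjusted p = 1) nor H12h (-0.89 ± 0.64, adjusted p = 0.553) passed. Because liver was sequenced in bulk, fewer cells of a type and less RNA per cell cannot be told apart.

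EPAS1 is known in mammals for its expression in vascular endothelium. The 20 endothelial markers summed to 16.7 to 23.5 FPKM in N, 13.9 to 24.4 in H24h and 13.5 to 21.5 in R3h. In edgeR 0 of the 10 tested were called in H24h or R3h against N (0.2% and 5.34% of all genes). An unadjusted p under 0.05 was found for 2 in each (19.7% and 26.6% of all genes). Their median log2 difference was 0.47 in H24h and 0.40 in R3h, or 0.49 in R3h without replicate 3. This list holds copies of FLT1 and kdr, vascular receptors that are also on the list of HIF targets. Macrophage markers had a median of -0.57 in R3h, with 9 of 12 negative, where 51.6% of all genes were. Of the 12, 2 were called in R3h (5.34% of all genes), both being copies of CD163, a scavenger receptor (110487464 and 110487431). Without R3h replicate 3, 1 was called (6.52% of all genes) and the median was -0.41. They summed to 116.81 to 287.72 FPKM in N and 46.7 to 167.54 FPKM in R3h. Red-cell markers had a median of 1.55 in R3h and 2.14 in H24h and summed to 237.66 to 512.23 FPKM in N, against 643.2 to 2098.6 FPKM in H24h and 334.92 to 1423.65 FPKM in R3h. Of 25 tested, edgeR called 0 in H24h (0.2% of all genes) and 1 in R3h (5.34%). An unadjusted p under 0.05 (edgeR) was found for 20 in H24h (19.7% of all genes) and 13 in R3h (26.6%). Without R3h replicate 3 the R3h median was 1.21, with 0 called in R3h (6.52% of all genes) and 3 called higher in H24h (3.91%). Lymphocyte markers summed to 10.2 to 22.8 FPKM in N, 21.9 to 33.7 in H3h, 8.58 to 10.9 in H24h and 7.24 to 14.2 in R3h, with the CCR7 copy at 0 in 4 of the 5 groups. In edgeR 0 of 8 were called in H24h (0.2% of all genes) or R3h (5.34%). An unadjusted p under 0.05 was found for 3 in H24h (19.7% of all genes) and 1 in R3h (26.6%). Without R3h replicate 3, 1 of the 8 was called lower in R3h (6.52% of all genes). The part of endothelial, macrophage, red-cell and lymphocyte RNA in the result was not tested.

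The other epas1 copies were minor. Epas1 (110503001), on chromosome 23, had a mean of 2.24 ± 0.23 FPKM in N and 1.95 ± 0.22 in H3h, then 1.06 ± 0.56 in H12h, 1.52 ± 0.35 in H24h and 1.03 ± 0.67 in R3h (SD, n = 3). Its omnibus test did not pass (adjusted p = 0.699, edgeR), and its log2 difference in R3h was -0.75 ± 0.50, or -0.29 ± 0.37 without R3h replicate 3. EPAS1 (110492879), a short locus on chromosome 16, held 14 counts in all 15 libraries together and did not pass the filter on low values.

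Hif1a (100135944), the HIF-1 alpha gene on chromosome 19 from 36868223 to 36887877, was the main hif1a copy. It stood at 23.5, 10.1 and 17.7 FPKM in N and at 29.3, 14.7 and 15.8 FPKM in H3h. Levels were 6.74, 6.62 and 9.38 FPKM in H12h, 7.11, 4.39 and 6.80 FPKM in H24h, and 4.71, 6.36 and 8.80 FPKM in R3h. All 9 libraries of H12h, H24h and R3h were below all 6 of N and H3h, although the gap was small, from 9.38 FPKM in H12h replicate 3 to 10.08 FPKM in N replicate 2.

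On the log2 scale hif1a (100135944) differed from N by 0.19 ± 0.30 in H3h, then by -0.62 ± 0.30 in H12h, -1.15 ± 0.30 in H24h and -0.95 ± 0.30 in R3h. None of these passed in edgeR, with adjusted p of 1, 0.363, 0.109 and 0.0745. Once R3h replicate 3 was left out the last pair did, at -1.12 ± 0.27 in H24h (adjusted p = 0.0420) and -1.17 ± 0.30 in R3h (adjusted p = 0.0404). Over 24 alternatives the adjusted p ranged from 0.00019 to 0.402 in H24h, passing in 3, and from 0.00155 to 0.299 in R3h, passing in 5. With all libraries, the test across the 5 groups passed while none of the 7 pairs of groups tested did.

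The second copy, hif1a (110505629) on chromosome 25, followed another course at 12 hours. Its levels were 13.0, 3.69 and 7.10 FPKM in N, 9.22, 12.7 and 6.64 FPKM in H3h, and 6.39, 6.90 and 8.58 FPKM in H12h. They were 4.88, 1.62 and 2.84 FPKM in H24h and 2.44, 4.75 and 1.41 FPKM in R3h. The H12h libraries lay inside the range of N, and every H24h library lay below every H12h library. The log2 difference of H24h from H12h was -1.48 ± 0.47 (unadjusted p = 0.00726, adjusted p = 0.178, edgeR), and across the 5 groups the adjusted p was 0.0915.

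Of the 3 remaining hif1a copies, HIF1A (110503712) ranged from 0.20 to 1.78 FPKM and HIF1A (110507593) from 0.27 to 1.67 FPKM, and neither was called (omnibus adjusted p = 0.592 and 0.669, edgeR). HIF1A (110510148), on chromosome 29, was counted here by its deposited name, while RefSeq names it hif1al2. This gene was too low to pass the filter on low values. It had 12, 19 and 35 counts in N and 6, 6 and 29 in H3h, then 82, 63 and 102 in H12h, 59, 85 and 73 in H24h, and 27, 64 and 0 in R3h. Its H12h and H24h libraries all exceeded every N and H3h library, the opposite order to that of hif1a (100135944) in FPKM. How many of all genes stood in this order was not computed. In a fit with no filter, its log2 difference in H12h against N was 2.46 ± 0.98 (unadjusted p = 0.0218, adjusted p = 0.387, edgeR), and its omnibus adjusted p was 0.156.

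The beta subunit gene arnt had 2 expressed copies, with r = 0.936 over the 15 libraries on log2 CPM (counts scaled to library size). Both copies were lowest in R3h replicate 3, which that r includes. Arnt (100136759), on chromosome 2, stood at 7.82, 4.39 and 6.47 FPKM in N and 9.14, 5.51 and 5.48 in H3h, then 4.48, 4.01 and 4.61 in H12h, 5.54, 3.38 and 4.76 in H24h and 3.34, 4.29 and 2.03 in R3h. On this scale every R3h library was below every N library. With TMM its log2 difference from N was 0.04 ± 0.28 in H12h, a sign that turned on the FPKM scale, and -0.54 ± 0.28 in R3h (adjusted p = 0.234, edgeR). In R3h without replicate 3 it was -0.27 ± 0.25.

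Arnt (110501040), on chromosome 21, stood at 4.07, 1.99 and 3.92 FPKM in N and 4.14, 3.13 and 3.45 in H3h, then 2.53, 2.24 and 2.36 in H12h, 2.46, 1.45 and 1.68 in H24h, and 1.21, 1.65 and 0.51 in R3h. Every R3h library was below every N library. The log2 difference of -1.14 ± 0.36 had an adjusted p of 0.0734 in edgeR (unadjusted 0.00691) and did not pass, and it was -0.77 ± 0.27 (adjusted p = 0.0922) without R3h replicate 3. The 3 arnt2 copies, paralogs best known from the nervous system of mammals, had 201, 84 and 189 counts in all. They reached at most 0.90 FPKM and did not pass the filter on low values. Arnt2 (110506172) and arnt2 (110506893) lie side by side on chromosome 26.

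Vhl (110494307), the substrate receptor of the ligase, has 1 copy, on chromosome 17. It stood at 3.79, 4.61 and 5.18 FPKM in N and 4.72, 3.62 and 4.44 in H3h, then 4.07, 3.15 and 3.32 in H12h, 3.58, 4.22 and 9.27 in H24h, and 5.67, 4.84 and 0.73 in R3h. The groups overlapped throughout, and the extremes were single libraries, H24h replicate 3 at the top and R3h replicate 3 at the bottom. No comparison was called (omnibus adjusted p = 0.793, edgeR). The widest difference from N was 0.59 ± 0.55 in H24h, and in R3h the value was 0.12 ± 0.55 with all libraries and 0.63 ± 0.36 without replicate 3.

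CUL2, the cullin scaffold, had 2 copies at similar levels. CUL2 (110490032), on chromosome 15, stood at 4.03, 2.66 and 3.80 FPKM in N and 4.77, 4.23 and 3.42 in H3h, then 1.70, 0.96 and 2.43 in H12h, 2.88, 1.28 and 2.04 in H24h, and 1.40, 2.57 and 0.84 in R3h. All H12h and R3h libraries were below all N libraries. Its log2 difference was -0.55 ± 0.36 in H12h and -0.74 ± 0.36 in R3h, neither called (adjusted p = 0.508 and 0.205, edgeR), and -0.42 ± 0.32 in R3h without replicate 3.

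CUL2 (110536590), on chromosome 11, stood at 5.52, 1.90 and 3.56 FPKM in N and 8.03, 3.25 and 4.80 in H3h, then 3.06, 2.07 and 2.37 in H12h, 2.1, 1.80 and 2.32 in H24h, and 1.68, 1.40 and 2.05 in R3h. N, at 1.90 to 5.52, overlapped every other group. Its omnibus unadjusted p was 0.0307 (adjusted 0.134, edgeR), with log2 differences from N of 0.52 ± 0.34 in H3h and -0.65 ± 0.34 in R3h.

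**Figure D2:**
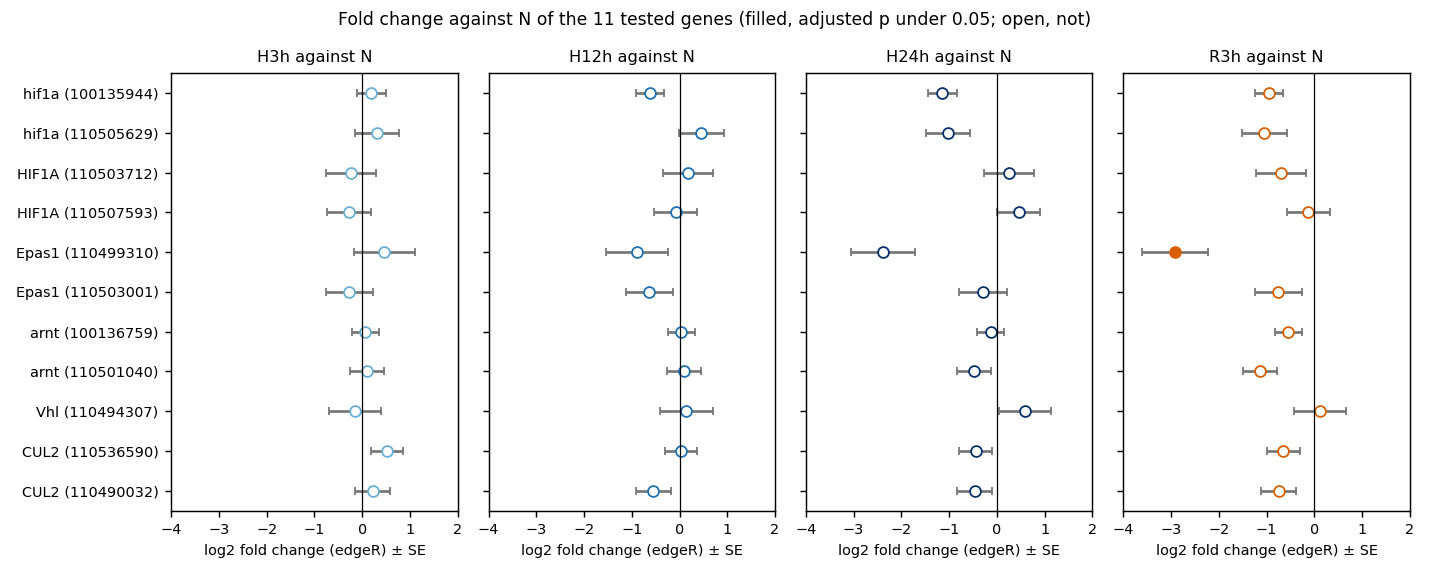
Log2 fold change against N from edgeR with its SE on the horizontal axis, for the 11 tested genes in H3h, H12h, H24h and R3h, which share the N libraries. The filled point, Epas1 (110499310) in R3h at -2.92, is the single call, and most points lie near 0 in H3h and below 0 in R3h.

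Comparison by comparison, the share of all 17502 genes that met the same rule is given in brackets. In H3h against N edgeR called 0 of the 11 genes (0%), and an unadjusted p under 0.05 was found for 0 (2.19%). DESeq2 called 0 (0.08%), limma on log2(FPKM + 1) 0 (0.00571%) and limma-voom 0 (0.0229%). In H12h against N edgeR called 0 of 11 (0.223%), with 0 at an unadjusted p under 0.05 (14.3%), 0 in DESeq2 (4.73%), 0 in limma (0.137%) and 2 in limma-voom (39.4%). In H24h against N edgeR called 0 of 11 (0.2%), with 3 at an unadjusted p under 0.05 (19.7%), 2 in DESeq2 (7.18%), 0 in limma (0.28%) and 5 in limma-voom (46.8%). In R3h against N edgeR called 1 of 11, Epas1 (110499310), and 5.34% of all genes, with 4 at an unadjusted p under 0.05 (26.6%), 3 in DESeq2 (15.9%), 3 in limma (10.8%) and 4 in limma-voom (36.3%). With R3h replicate 3 left out the count in edgeR was 2 in H24h (3.91%) and 2 in R3h (6.52%), Epas1 (110499310) and hif1a (100135944) each time.

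The mean of H3h, H12h and H24h against N gave 0 calls of 11 in edgeR (0%), with 1 at an unadjusted p under 0.05 (8.2%), 0 in DESeq2 (0.56%), 0 in limma (0.00571%) and 2 in limma-voom (35.2%). Between groups other than N, H12h against H3h gave 0 calls (0.0171%), with 1 at an unadjusted p under 0.05 (16%), 0 in DESeq2 (4.57%), 0 in limma (0.04%) and 2 in limma-voom (19.9%). For H24h against H12h there were 0 calls (0%), with 2 at an unadjusted p under 0.05 (14.5%), 1 in DESeq2 (4.67%), 0 in limma (0.0571%) and 3 in limma-voom (25.8%). R3h against H24h gave 0 calls (0%) and 0 at an unadjusted p under 0.05 (7.36%), as well as 0 in DESeq2 (0.32%), limma (0%) and limma-voom (0.0114%). Limma-voom gave library weights from 0.0999 to 6.54, and its counts stand against a high background in most comparisons.

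The fitted differences leaned downwards in H24h and R3h. Against N, 8 of 11 genes had a negative fold change in H24h, where 52.3% of all genes did, and 10 of 11 in R3h, where 51.6% did, Vhl being the exception in R3h. R3h against H24h was negative for 10 of 11 (50.7% of all genes). Leaving out R3h replicate 3, the negative counts were 8 of 11 in H24h against N (51.2% of all genes), 9 in R3h against N (52.5%) and 8 in R3h against H24h (52.3%). The median log2 difference of the 11 genes was 0.09 in H3h, then 0.03 in H12h, -0.45 in H24h and -0.74 in R3h. For all genes these medians were 0.00, -0.07, -0.05 and -0.04. The lower median of R3h rested on replicate 3: without it the 11 genes had a median of -0.42 in H24h and -0.42 in R3h, and of -0.058 for R3h against H24h (all genes -0.022).

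In TMM-scaled CPM, groups that did not overlap always had the first-named group lower among these genes. Against N this held for 2 of 11 genes in H12h, where 13% of all genes were lower without overlap, hif1a (100135944) and CUL2 (110490032). It held for 2 in H24h (17.2% of all genes), hif1a (100135944) and Epas1 (110499310). In R3h it held for 5 (14.7% of all genes): these 3, and both arnt copies. It held for 2 in H12h against H3h (15.1% of all genes), hif1a (100135944) and CUL2 (110490032), and for 5 in H24h against H12h (12.4% of all genes): hif1a (100135944), hif1a (110505629), Epas1 (110499310), arnt (110501040) and CUL2 (110536590). In R3h against H24h it held for 1, arnt (100136759), where it did for 4.62% of all genes. With R3h replicates 1 and 2 alone, the same 5 genes were lower than N without overlap (23.1% of all genes) and the same 1 lower than H24h (9.23%). The counts of 2 of 11 are near the shares of all genes beside them. How many of all genes were higher without overlap is not given. The shared direction therefore cannot be read as particular to these genes.

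Near-identical copies can share reads, and trout carries many duplicated genes, so the copies of each family were also summed. Summed epas1 counts differed among the 5 groups (adjusted p = 0.0345, edgeR) and were lower in R3h than in N at -2.61 ± 0.65 on the log2 scale (adjusted p = 0.0371), or -2.12 ± 0.55 (0.0404) without R3h replicate 3. Summed hif1a counts had an omnibus adjusted p of 0.0542, cul2 0.0714, arnt 0.271, arnt2 0.566 and vhl 0.794. In this fit epas1 was thus the single family called, where edgeR called 7.24% of all single genes. Of 15 fits that left out a library it was kept in 5, those without N replicate 2, H3h replicate 3, H12h replicate 3 and R3h replicates 2 or 3. Summed hif1a counts were also called without N replicate 2, R3h replicate 2 or R3h replicate 3. In the last the adjusted p was 0.0484 (edgeR), where 15.3% of all genes were called. No family was called in the other left-out fits, nor with the replicate block. DESeq2 (25.7% of all single genes called) and limma on log2(FPKM + 1) (11.6%) called hif1a and cul2 besides epas1. So did the fit at a mean FPKM of at least 2. Limma-voom (69.2%) called arnt as well. Other size factors, no filter and log2(FPKM + 0.1) gave epas1 alone. Where no share is given, a call cannot be read as particular to these families.

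Summed FPKM of all HIF alpha copies was 63.2 ± 28.1 in N and 78.9 ± 29.4 in H3h (SD, n = 3). It was 30.9 ± 11.1 in H12h, 18.5 ± 5.97 in H24h and 15.3 ± 5.6 in R3h. On the FPKM scale the median gene was also lower in these 3 groups. With TMM, summed counts in H12h against N differed by -0.12 ± 0.29 on the log2 scale for hif1a and -0.87 ± 0.61 for epas1 (adjusted p = 0.889 and 0.54, edgeR). In H24h they differed by -0.90 ± 0.29 and -2.10 ± 0.63 (adjusted p = 0.142 and 0.128, edgeR). Arnt copies summed to 9.55 ± 2.85 FPKM in N and 4.34 ± 1.71 in R3h. The ratio of alpha to arnt FPKM was 5.77 to 7.80 in N and 5.04 to 11.4 in H3h, then 3.43 to 6.18 in H12h, 2.53 to 3.01 in H24h and 2.74 to 4.59 in R3h, where replicate 3 was the highest and replicates 1 and 2 were at 2.74 and 3.66. It was lower in every H24h and R3h library than in any N library. With 3 libraries against 3, the exact two-sided permutation test cannot go below p = 0.1, so it could not pass whatever the values. The ratio reached that p in H24h and R3h. The 75 permutation tests also hold, for each measure, the 9 H libraries against the 3 of N, which can go lower. None of the 75 passed (smallest adjusted p = 0.326).

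Shares of copies within a library do not depend on library scaling. The epas1 copies made up 54.8% to 58.5% of HIF alpha FPKM in N and 46.1% to 70.1% in H3h, then 29.0% to 51.6% in H12h, 34.2% to 39.2% in H24h and 8.33% to 37.5% in R3h, so every H12h, H24h and R3h library was below N. The 8.33% is that of R3h replicate 3, and the other R3h libraries were at 32.9% and 37.5%. Within epas1, copy 110499310 held 87.9% to 95.8% in N, 90.3% to 93.4% in H12h, 72.8% to 78.7% in H24h and 69.9% to 80.6% in R3h. The 2 epas1 copies thus stood in different proportions in H24h and R3h than in N.

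Within hif1a, copy 100135944 held 60.9% to 65.0% of FPKM in N and 43.4% to 45.4% in H12h, while copy 110505629 held 23.2% to 33.8% in N and 41.2% to 45.3% in H12h. In H3h replicate 2 they held 50.0% and 43.2%, and in the other H3h libraries they held 65.2% to 72.8% and 22.9% to 27.4%. By H24h copy 110505629 was back at 20.3% to 30.8%. The gene 110510148, hif1al2 in RefSeq, had gone from 0.260% to 0.809% in N to 2.59% to 6.40%. Within arnt, copy 100136759 held 62.3% to 68.8% in N, 69.2% to 73.9% in H24h and 72.2% to 79.9% in R3h, the highest being replicate 3. The CUL2 shares overlapped in every group. Each of the non-overlapping shares had an exact permutation p of 0.1, the smallest 3 against 3 allows (two-sided, adjusted p = 0.326 over the 75 tests).

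**Figure D3:**
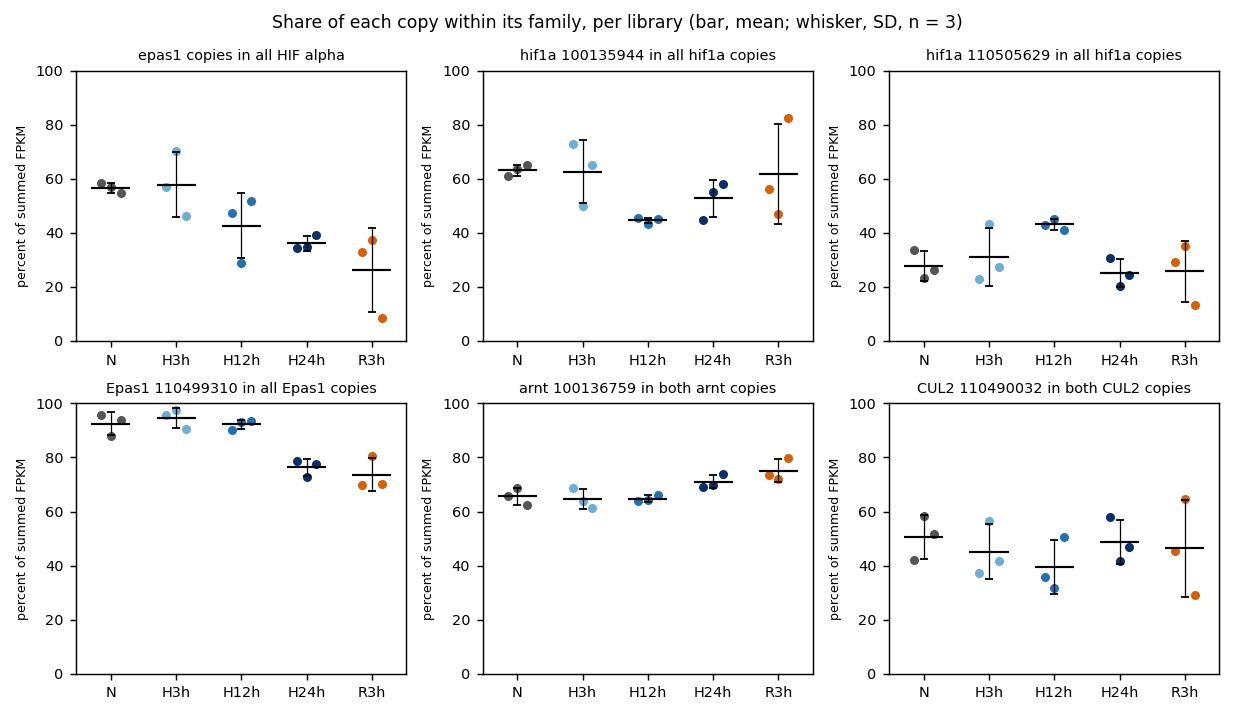
Share of summed FPKM in percent, per library and group, for the epas1 copies among all HIF alpha copies and for single copies within their family, with the mean as a bar and the SD of 3 libraries as a whisker. The hif1a copies 100135944 and 110505629 both lie between 41.2% and 45.4% in H12h, and Epas1 110499310 is at most 80.6% in H24h and R3h.

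The genes that act on HIF were read from lists of named pathway genes. Of the 8 tested HIF hydroxylases, the oxygen sensors, 4 rose in H12h against N (where 0.223% of all genes were called) and 4 in R3h against N (5.34%), and 5 differed among the 5 groups (7.24%). Egln3 (110505778), a prolyl hydroxylase, stood at 0.19, 0.26 and 0.28 FPKM in N and 1.58, 6.19 and 1.57 FPKM in H3h, then 15.94, 14.97 and 8.99 FPKM in H12h, 0.77, 0.62 and 1.56 FPKM in H24h, and 6.24, 2.93 and 21.1 FPKM in R3h. All 3 libraries of H12h, and also of R3h, lay above those of N and H24h, and the 3 R3h libraries spread widely. How many of all genes stood in this order was not computed. The N levels of Egln3 (110505778) were below the filter value of 0.5 FPKM, so it passed the filter only through other groups. Its log2 fold change was 6.26 ± 0.88 in H12h (adjusted p = 0.0180, edgeR) and 5.69 ± 0.85 in R3h (0.0107), or 4.64 ± 0.71 in R3h without replicate 3 (0.0130).

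The EGLN1 copies 110486061 and 101268917 rose in H12h, by 1.92 ± 0.30 and 2.32 ± 0.39 on the log2 scale, and in R3h, by 1.74 ± 0.30 and 1.61 ± 0.38, or by 1.60 ± 0.30 (adjusted p = 0.0182, edgeR) and 1.41 ± 0.39 (0.0492) without replicate 3. Hif1an (101268916), the asparaginyl hydroxylase that blocks co-activator binding, rose by 4.12 ± 0.68 in H12h and 2.82 ± 0.64 in R3h, and by 3.29 ± 0.54 in R3h without replicate 3. There were 4 R3h calls without that library too, where 6.52% of all genes were called. In the 5-group test EGLN2 (110507058) was called as well (adjusted p = 0.0389, edgeR). None of the 8 was called in H24h, where 0.2% of all genes were, and 4 had an unadjusted p under 0.05 (19.7% of all genes, edgeR). Without R3h replicate 3 there were 2 calls in H24h (3.91% of all genes), hif1an (101268916) at 2.19 ± 0.50 (adjusted p = 0.0412) and EGLN2 (110503496) at -1.54 ± 0.36 (0.0420). The median log2 difference of the list was 0.37 in H3h, then 2.12 in H12h, 0.56 in H24h and 1.68 in R3h. Neither alpha subunit nor Vhl was called higher in H12h, where these 4 hydroxylases rose.

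The next list holds 25 tested genes of cullin ligases, CUL5 and Rnf7 among them, and is not specific to Vhl and CUL2. An unadjusted p under 0.05 (edgeR) was found for 2 in H12h (14.3% of all genes) and 6 in H24h (19.7%). In edgeR 0 of the 25 were called in H12h and 0 in H24h, and 5 were called higher in R3h. All genes were called at 0.223%, 0.2% and 5.34% in these comparisons. Rnf7 (110503734), a RING protein of cullin ligases, rose in R3h by 1.97 ± 0.47 on the log2 scale, and UBE2D2 (110504919), a ubiquitin-conjugating enzyme, by 1.25 ± 0.33. Of NEDD8, the ubiquitin-like protein that activates cullins, 3 copies rose: 110508476 by 1.62 ± 0.41, 100301786 by 1.47 ± 0.40 and 110531626 by 1.07 ± 0.29. Rnf7 (110503734) stood at 2.80, 4.06 and 3.54 FPKM in N and 7.04, 5.45 and 19.7 FPKM in R3h, the last in replicate 3. Leaving out R3h replicate 3, 0 of the 25 were called in R3h, where 6.52% of all genes were, and the adjusted p of these 5 ranged from 0.0595 to 0.103. CAND1 (110490685), the exchange factor of cullin ligases, was at -0.99 ± 0.34 in H12h and -0.98 ± 0.34 in H24h and was not called (adjusted p = 0.200 and 0.157). CUL5 (110537671), another cullin, was called in H12h without R3h replicate 3, at -1.31 ± 0.30 (adjusted p = 0.0473), when 1.81% of all genes were.

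Other factors of HIF alpha turnover gave 1 call among 24 tested across the 5 groups, below the share of all genes (7.24%). It was wsb1 (110507886), a receptor that in human cells targets VHL itself (adjusted p = 0.0484, edgeR). Its level was 6.34, 5.85 and 2.94 FPKM in H12h and 1.77, 0.98 and 0.86 FPKM in H24h. In R3h FBXW7 (110534508), an F-box protein, was at -1.32 ± 0.41 on the log2 scale and GSK3B (110488370), a kinase, at -1.25 ± 0.44. Neither was called (adjusted p = 0.0690 and 0.101, edgeR). Leaving out R3h replicate 3, 2 of the 24 were called lower in R3h, near the share of all genes (6.52%). Both were copies of usp20, a deubiquitinase that in human cells stabilises HIF1A. They were at -2.69 ± 0.70 for 110490405 and -2.57 ± 0.63 for 110500078 (adjusted p = 0.0404 and 0.0345, edgeR). The chaperone gene hsp90ab1 (100136599) was at -1.37 ± 0.44 in H24h (adjusted p = 0.142).

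Of 29 tested co-activators and co-repressors, 2 were called lower in R3h, near the share of all genes (5.34%). On the log2 scale CREBBP (110487234), the acetyltransferase that binds HIF alpha, fell by 2.25 ± 0.53. The co-repressor rcor1 (110497708) fell by 1.24 ± 0.33. Other genes of the list also carry the name CREBBP. CREBBP (110487234) stood at 2.73, 1.30 and 3.37 FPKM in N, 0.75, 0.37 and 0.42 in H24h, and 0.19, 0.75 and 0.25 in R3h, with no overlap between N and these groups. How many of all genes stood in this order was not computed. Without R3h replicate 3 the adjusted p was 0.0547 for CREBBP (110487234) and 0.0532 for rcor1 (110497708) in edgeR. The co-activator NCOA3 (110492379) was then the 1 called of 29, at -1.68 ± 0.46 (adjusted p = 0.0472, edgeR). That is below the share of all genes called (6.52%). Cited2 (110522239), which competes with HIF alpha for CREBBP, differed among the 5 groups (adjusted p = 0.0237, edgeR). Among the 14 tested other bHLH-PAS factors 0 were called in the 5-group test (7.24% of all genes) and 5 had an unadjusted p under 0.05 (29% of all genes). CLOCK (110533857) had the lowest adjusted p, 0.0505, or 0.0255 without R3h replicate 3, where it was called. No gene of that list was called against N either, the smallest adjusted p being 0.103 for ARNTL (110523666) in H12h.

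Known HIF targets, a list that includes the EGLN genes and cited2, were called higher in H12h (7 of 96, against 0.223% of all genes called), H24h (1, against 0.2%) and R3h (12, against 5.34%), with no target called lower. Tpi1b (110517847), the glycolytic triosephosphate isomerase, rose in all 3, by 3.22 ± 0.43, 2.73 ± 0.42 and 3.67 ± 0.44 on the log2 scale. P4HA1 (110529637), a collagen hydroxylase, stood at no more than 0.04 FPKM in N and at 2.37, 2.72 and 1.33 FPKM in H12h. Its log2 fold change was 7.05 ± 1.05. With N near 0, P4HA1 passed the filter of 0.5 FPKM only through groups where it was higher. Its call is therefore not independent of the filter. Ero1a (110505225), an oxidase of the endoplasmic reticulum, rose by 5.01 ± 0.73 in H12h and stood at 0.47, 0.11 and 0.24 FPKM in H24h. Without R3h replicate 3 the calls were 20 in H12h (1.81% of all genes), 5 in H24h (3.91%) with 1 of them lower, and 15 in R3h (6.52%) with 2 lower, the kinase genes PDK2 (110491496) and HK2 (110525863).

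**Figure D4:**
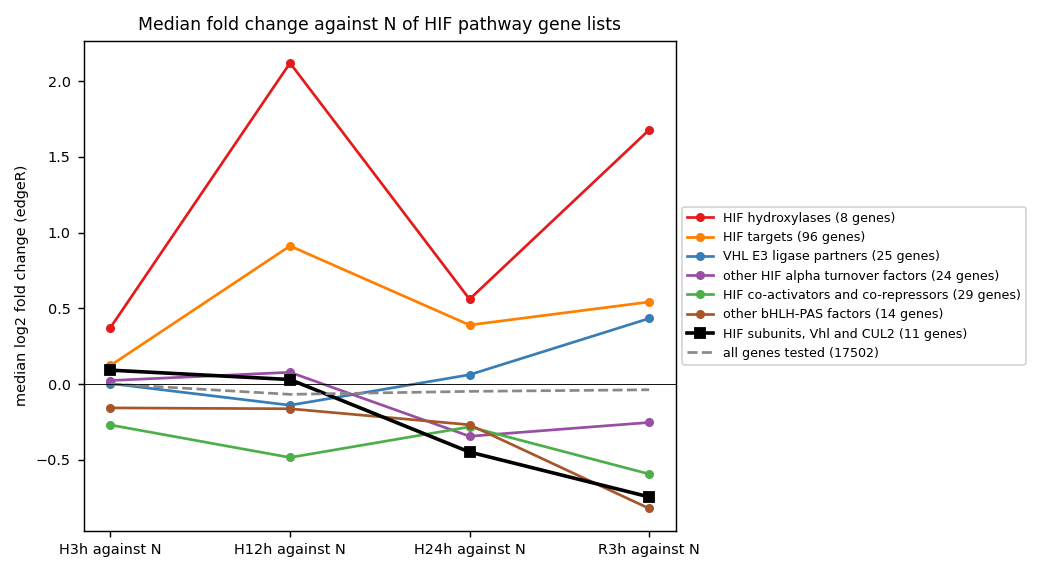
Median log2 fold change against N from edgeR in each group, for the 11 HIF subunit, Vhl and CUL2 genes, for 6 pathway lists and for all 17502 tested genes. The hydroxylase median is 2.12 in H12h and 1.68 in R3h, while the median of the HIF subunit, Vhl and CUL2 genes goes from 0.09 in H3h to -0.45 in H24h and -0.74 in R3h, or -0.42 in both without R3h replicate 3.

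Pairs of these genes differed in how alike they ran over the 15 libraries, given as Pearson's r of log2 CPM, a description in which libraries of a group share their treatment. Every r, here and for the most similar genes below, includes R3h replicate 3, and none was computed without it. All tested genes of the set except hif1a (100135944) and CUL2 (110536590) had their lowest CPM in that library, which can raise r between genes. CUL2 (110490032) ran most like Epas1 (110499310), with r = 0.876, against r = 0.336 with the other CUL2 copy. CUL2 (110536590) ran most like hif1a (100135944), with r = 0.781. The 2 main alpha subunits had r = 0.689 with each other. Vhl and hif1a (100135944) had r = -0.409.

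Among all tested genes with a name, those most like Epas1 (110499310) were AKAP1 (r = 0.977), ATRX (0.972), Prrc2c (0.970), CARMIL1 (0.967), RANBP3 (0.967) and UBAP2 (0.965). Hif1a (100135944) ran most like Prep (r = 0.967), UBE2L3 (0.966) and NARS (0.953), and hif1a (110505629) like Tjap1 (0.982), Rabl6 (0.956) and TRA2B (0.952). Of the low copies, HIF1A (110503712) ran with ndel1b (0.930), Kifc3 (0.925) and PROS1 (0.904). HIF1A (110507593) ran with Ing4 (0.900), rnf169 (0.897) and CYP2J2 (0.877), and Epas1 (110503001) with SOX5 (0.967), Pdp1 (0.950) and Trmo (0.947). For arnt (100136759) the nearest were UBE2R2 (0.964), Nectin2 (0.949) and Wwtr1 (0.944), and for arnt (110501040) fam20b (0.978), Atp6v0a1 (0.977) and Osbp (0.968). For CUL2 (110490032) they were Ap1b1 (0.969), PPP1R9A (0.964) and ZC3H13 (0.960), for CUL2 (110536590) PLK2 (0.926), acsbg2 (0.883) and ATF3 (0.873), and for Vhl Gch1 (0.953), VTCN1 (0.946) and zgc:171711 (0.942). No gene of the set was among the nearest of another, and with 15 libraries and 17502 genes such high values are those of the best match.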

How the data were processed

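Raw counts per gene and FPKM, a level scaled by gene length and library size, were computed and deposited by the authors for 15 libraries in 1 table, per the file headers. The submitters' processing notes name Bowtie2 2.2.8 and TopHat2 2.1.1. The genome build, its annotation and how reads were counted are not given in the sources that were used here. Names are those of the deposited table, and 31271 of 34965 identifiers, 15 of the 16 genes described, were also found in a RefSeq gene table (assembly USDA_OmykA_1.1).

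Here, edgeR 4.0.16 (R 4.3.3) fitted quasi-likelihood models to the deposited counts of the 17502 genes whose FPKM averaged 0.5 or more, with TMM scaling, all 15 libraries and 5 group means (10 residual degrees of freedom). Benjamini-Hochberg adjustment ran over all genes of a comparison. The SE, an approximation, is the size of the log2 fold change over the root of its F statistic. Single values per library were compared by exact permutation tests. The test was run on simulated counts with changes planted in H12h, where it had to return the sign of most of them. Those counts held no outlying library, so they do not show how the calls behave with R3h replicate 3. Alternatives were other size factors, no filter or a mean FPKM of at least 2, DESeq2 1.42.0, limma 3.58.1 on log2(FPKM + 1) or log2(FPKM + 0.1), limma-voom with quality weights, a replicate block, only the 2 groups compared, and leaving out each library. FPKM divided by the TMM factor, the left-out libraries for levels and shares, and the lists, negative counts and overlaps without R3h replicate 3 were chosen after seeing the data.

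Every gene of the set is named. From each pathway list the called genes, up to 6 per comparison, or else the 2 smallest p, could be named, with values given for some. Genes named as called with R3h replicate 3 left out were chosen after their values were seen. The 3 most correlated genes (6 for Epas1 110499310) are named per tested gene. The genes, lists and tests were chosen with earlier results of these data known. Columns of no sample: 0.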

Additional observations from a re-analysis of the deposited data

How the results depend on the processing

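Of the log2 fold changes of single genes under the alternatives, 974 kept their direction and side of the threshold, 43 changed sign, 23 came to pass and 4 no longer passed; of the counts of calls, 185 stayed within 1.5 times and 52 did not. Genes called across the 5 groups (2 of 11, and 7.24% of all genes) were 1 without the filter on low values, 4 in DESeq2 (25.7%), 6 in limma-voom with quality weights (69.2%) and 1 with the replicate block. The correlation between libraries, less their group means, averaged 0.0434 over 30 same-numbered pairs, 10 above 0.1. Over 60 pairs of different number it averaged -0.0231, with 15 above 0.1. This does not settle whether the numbers pair the libraries. For R3h against N (1 gene called, and 5.34% of all genes) the genes called were 3 at a mean FPKM of at least 2, 3 in DESeq2 (15.9%), 3 in limma on log2(FPKM + 1) (10.8%), 2 on log2(FPKM + 0.1), 4 in limma-voom (36.3%) and 0 with only the 2 groups compared. Limma-voom called 2 for the mean of the H groups against N (35.2% of all genes), 2 for H12h against N (39.4%), 5 for H24h against N (46.8%), 2 for H12h against H3h (19.9%) and 3 for H24h against H12h (25.8%). DESeq2 called 2 for H24h against N (7.18%) and 1 for H24h against H12h (4.67%). In edgeR each of these counts was 0. Families called across the 5 groups (1) were 3 at a mean FPKM of at least 2, 3 in DESeq2, 3 in limma on log2(FPKM + 1), 4 in limma-voom and 0 with the replicate block. Leaving out each library gave 0 to 3 genes across the 5 groups, 0 to 2 in H24h against N, 0 to 2 in R3h against N and 0 to 2 families. The share of all genes called moves with the setting too. Where no share stands beside a count here, the count cannot be read as particular to these genes.

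Signs of uncalled fold changes turned as follows. In H12h against N, at a mean FPKM of at least 2, arnt (100136759) was -0.047, arnt (110501040) -0.0014 and CUL2 (110536590) -0.049. On log2(FPKM + 1) and log2(FPKM + 0.1), arnt (100136759) was -0.40 and -0.47, Vhl -0.29 and -0.35, arnt (110501040) -0.32 and -0.40, HIF1A (110503712) -0.17 and -0.35, and CUL2 (110536590) -0.35 and -0.43, where these scales also moved the median gene down. In limma-voom HIF1A (110503712) was -0.20 in H12h, arnt (110501040) -0.045 in H3h and HIF1A (110507593) 0.022 in R3h. HIF1A (110503712) in H24h was -0.030 and -0.078 on the FPKM scales. Vhl in R3h was -0.089 at a mean FPKM of at least 2 and -0.43 and -0.68 on the FPKM scales, and the log2 difference of Vhl FPKM between the H libraries and N was 0.19 after division by the TMM factor. Beyond the construction of each alternative the cause was not tested.

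With each library left out in turn, log2 fold changes in H3h against N ranged from -0.075 to 0.39 for hif1a (100135944), -0.11 to 0.17 for arnt (100136759), -0.35 to 0.0051 for Vhl, -0.061 to 0.83 for Epas1 (110499310), -0.081 to 0.19 for arnt (110501040), -0.48 to 0.016 for HIF1A (110503712) and -0.061 to 0.74 for hif1a (110505629). In H12h they ranged from -0.057 to 0.17 for arnt (100136759), -0.0071 to 0.30 for Vhl, -0.090 to 0.23 for arnt (110501040), -0.19 to 0.43 for HIF1A (110503712), -0.17 to 0.026 for HIF1A (110507593) and -0.20 to 0.39 for CUL2 (110536590). In H24h HIF1A (110503712) ranged from -0.065 to 0.51 and HIF1A (110507593) from -0.032 to 0.71. In R3h Vhl ranged from -0.45 to 0.63 and HIF1A (110507593) from -0.51 to 0.25. For the H libraries less N, the log2 difference of Vhl FPKM ranged from -0.22 to 0.024 and the difference in the share of arnt (100136759) among arnt copies from -0.476 to 2.79 percentage points. With all libraries, that difference had an exact permutation p of 0.191 for the epas1 share of HIF alpha (adjusted 0.441). Without H3h replicate 2, the highest H library at 70.1%, the exact permutation p was 0.0364, unadjusted (-14.3 points). For the hif1a (100135944) share of hif1a the exact permutation p was 0.155 with all libraries (adjusted 0.441). Without H3h replicate 1, the highest H library at 72.8%, the exact permutation p was 0.0485, unadjusted (-12.2 points). Among the alternatives for levels and shares, only these 2 came to pass, while 181 stayed the same and 3 changed sign. These alternatives were chosen after seeing the data. Depth limits the low copies: EPAS1 (110492879) and the arnt2 copies did not pass the filter on low values. In the fit with no filter their omnibus adjusted p ranged from 0.669 to 0.937 (edgeR).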
